A study of Mus musculus with 6 samples.

Results

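The death receptors and the BCL2 family control apoptosis, and 10 of their genes are described here across 3 mouse cell lines. They are the death receptors Tnfrsf10b and Fas, the survival genes Bcl2, Bcl2l1 and Mcl1, the BH3-only genes Bcl2l11, Bbc3, Pmaip1 and Bid, and the effector Bak1. The genes were taken by symbol from the platform's table of probe sets and genes. Only probe sets with 1 symbol were used, and these name 19505 genes. Each of the 10 was read by 1 probe set, and all 10 were found. RNA was measured on 6 Affymetrix Clariom S arrays, 2 for each line, from derivatives of melan-a, an immortalized line of mouse melanocytes labelled C57BL/6J. The line mKitK641E(T), called T, is labelled as carrying Kit with the K641E substitution, is titled C3# and is labelled as transformed melanoma. The line mKitK641E(PT), called PT, is labelled with the same form of Kit, is titled hi exp and has the same melanoma label. The line mVec carries the control vector CD516B2 and is labelled as melanocytes. All 3 lines were grown in RPMI with 10% serum and were not treated. Kit, a receptor tyrosine kinase, binds stem cell factor, and the K641E form is known to be active without it. The sources used here do not give what T, PT, C3# and hi exp stand for. The probe set of Kit was at background on all 6 arrays and did not bear out the labels, with log2 values of 4.53 and 5.18 on the T arrays, 4.53 and 3.84 on the PT arrays, and 4.68 and 4.97 on the mVec arrays. No comparison called it, and the PT arrays, titled hi exp, did not stand above the others. Whether this probe set reads the introduced Kit is not stated in the labels, so T and PT below mean the arrays that carry those labels. With 1 line per group, the errors and p-values reflect how far the 2 arrays of a line lie apart, which may be technical, and say nothing of the spread between independently made lines.

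Death receptors sit in the plasma membrane. When their ligands bind, they recruit adaptors and caspase 8, which starts the cascade of proteases that dismantles the cell. BCL2 family proteins act at the outer mitochondrial membrane: survival members such as BCL2 hold the effectors BAX and BAK in check, BH3-only members such as BIM relieve that hold, and free effectors open pores that release cytochrome c. In melanocytes, survival signalling from Kit is known to act in part through BCL2 and BIM, the product of Bcl2l11.

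The deposited table gives 1 log2 expression value for each probe set on each array. A value counted as above background when it exceeded the 95th percentile of the 5222 negative-control probe sets of its array, a limit that lay between 8.74 and 9.16. A group was at background when neither of its arrays exceeded its limit. A fold against such a group is a lower bound taken against the limit, and no fold is given where both groups were at background. The limit bears on the folds: at the 99th percentile instead, Bcl2l1, Bcl2l11 and Bak1 were at background on all 6 arrays as well, and their folds below would not be given. That limit, between 12.15 and 13.07, was applied to the 10 genes only. Folds of other genes below hang on the limit too, and all values of Traf1, Traf2, Bcl2l13, Birc5 and Casp6, among others, lie under the stricter one. Differences were tested with limma and called at a Benjamini-Hochberg adjusted p under 0.05 over all 22206 gene probe sets, and the number after ± is limma's standard error. Array medians ran from 5.64 to 5.89, and 29.0% to 32.6% of the gene probe sets were above background. Of 10 melanocyte markers, Gpnmb was above background on both arrays of every line and Mitf on both T arrays, and no other marker was above it on both arrays of a line. Of 9 measured fibroblast markers, 3 were above background on both arrays in T, 1 in PT and 6 in mVec. Their summed log2 values were 64.8 to 65.5 in T, 58.4 to 60.3 in PT and 104.6 to 104.8 in mVec. None of 8 leukocyte markers and none of 6 keratinocyte markers was above background on both arrays of any line, and of 4 endothelial markers only Cdh5 was, in mVec. Whether the fibroblast markers have a part in the differences below was not tested. The arrays read whole cultures, so fewer cells with a transcript and less transcript per cell cannot be told apart.

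Compared with mVec, Tnfrsf10b was higher and Bcl2, Bcl2l1, Bcl2l11 and Fas were lower in both T and PT. Bak1 and Mcl1 were called higher in PT. Bbc3, Pmaip1 and Bid were at background on all 6 arrays and were not called in any comparison. In T minus mVec, 5 of the 10 genes were called, beside 32.4% of all gene probe sets: 1 higher, beside 16.9%, and 4 lower, beside 15.5%. In PT minus mVec, 7 were called, beside 35.9%: 3 higher, beside 17.9%, and 4 lower, beside 18.0%. In T minus PT, 1 was called, beside 8.36%: 0 higher, beside 5.67%, and 1 lower, beside 2.70%. The share of the 10 genes called in T minus PT was near the background. A larger share was called when the fit was limited to probe sets with higher values. In a separate fit and adjustment of the 7953 probe sets above background on at least 2 arrays, 71.8% were called in T minus mVec and 75.6% in PT minus mVec. That fit called all 6 members in the set in both comparisons. Among them were Mcl1 and Bak1 in T minus mVec, which the fit over all gene probe sets did not call there. Tnfrsf10b was in the set through its T and PT arrays only. The median log2 difference of the 10 genes was 0.04 in T minus mVec, 0.06 in PT minus mVec and -0.03 in T minus PT, beside 0.01, 0.08 and -0.04 over all gene probe sets. The 2 comparisons with mVec share its arrays and are not independent. With the arrays centred on their medians, the median difference over all probe sets was 0.20 in T minus mVec and 0.27 in PT minus mVec, and the share of calls that were higher was 62.3% in T, against 52.3% as deposited, and 60.3% in PT, against 49.9%.

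**Figure D1:**
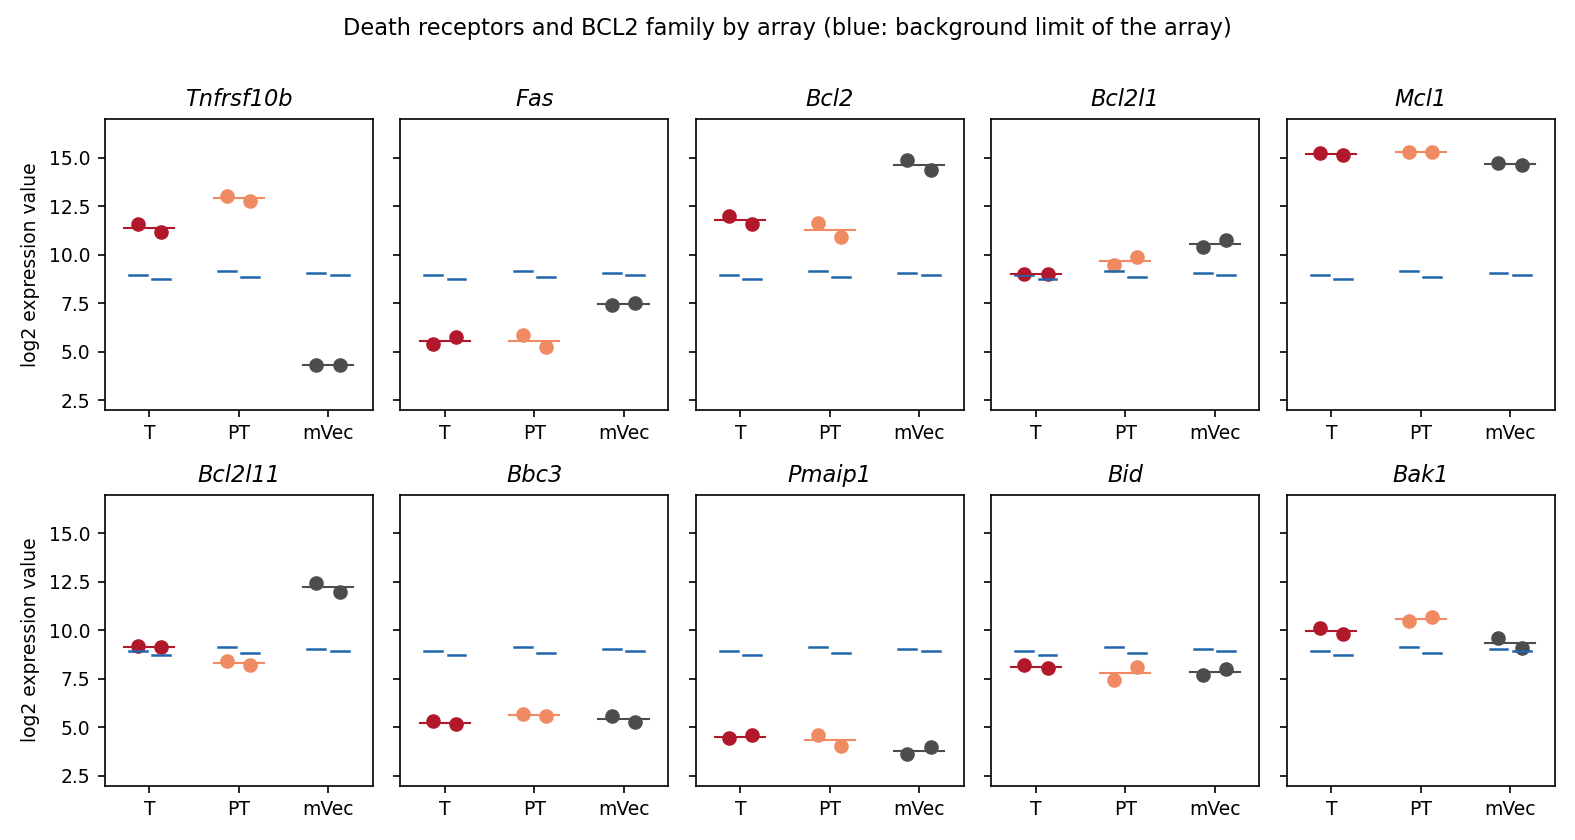
Log2 expression value (vertical axis) of the 10 genes on each array of T, PT and mVec. Points are arrays, the coloured line is the group mean of 2 arrays and the blue line is the background limit of that array. Tnfrsf10b lies above the limit in T and PT and far under it in mVec, and Bcl2 and Bcl2l11 are lower in T and PT than in mVec.

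Tnfrsf10b encodes the mouse receptor for the death ligand TRAIL, also known as DR5. Its log2 values were 11.56 and 11.15 on the T arrays, 13.02 and 12.78 on the PT arrays, and 4.33 and 4.29 on the mVec arrays. T and PT were above background on every array, mVec was under it on both, and no 2 groups overlapped. In T it was higher than in mVec by at least 5.12-fold (log2 difference 7.05 ± 0.22, limma adjusted p = 3.98e-08). In PT it was at least 14.9-fold higher than in mVec (log2 difference 8.59 ± 0.22, adjusted p = 1.11e-08). These were the largest differences among the 10 genes in either comparison. With the stricter 99th percentile of the negative controls as the limit, T was at background too and has no bound, and the bound in PT was 1.03-fold. Tnfrsf10b was also the single member called between T and PT, 2.90-fold lower in T than in PT (log2 difference -1.54 ± 0.22, limma adjusted p = 0.00438). At the 99th percentile limit, this fold became a bound of at least 1.57-fold. The order of the levels was therefore PT, T and mVec, with each neighbouring pair called as different.

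Fas encodes the receptor for Fas ligand. Its log2 values were 5.38 and 5.76 on the T arrays, 5.84 and 5.24 on the PT arrays, and 7.38 and 7.49 on the mVec arrays. All 6 values were under the background limits, so that no fold is given, and both mVec arrays were higher than every array of T and PT. The difference was called in T minus mVec (-1.87 ± 0.26, limma adjusted p = 0.000300) and in PT minus mVec (-1.89 ± 0.26, adjusted p = 0.000221). T and PT overlapped, with a difference of 0.03 and a 95% interval from -0.55 to 0.60. The 2 death receptors thus had differences of opposite sign in both T and PT, with Tnfrsf10b above background in T and PT and Fas in none of the lines.

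Bcl2, the founding survival gene of the family, was above background in every line. Its log2 values were 11.98 and 11.59 on the T arrays, 11.64 and 10.90 on the PT arrays, and 14.89 and 14.36 on the mVec arrays. T and PT lay under mVec with no overlap, while T and PT overlapped. Bcl2 was 7.16-fold lower in T (log2 difference -2.84 ± 0.30, limma adjusted p = 5.38e-05) and 10.2-fold lower in PT (-3.35 ± 0.30, adjusted p = 1.26e-05) than in mVec. At the 99th percentile limit T and PT were at background, and these folds became bounds of at least 5.19-fold in T and at least 4.37-fold in PT. The difference between T and PT was not called, at 0.51 with a 95% interval from -0.16 to 1.19.

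Bcl2l1 encodes the survival protein BCL-XL, and a shorter splice form of the gene acts the other way. The deposited table gives 1 value for the gene and does not separate the forms. The log2 values were 9.02 and 9.02 on the T arrays, 9.45 and 9.90 on the PT arrays, and 10.37 and 10.76 on the mVec arrays. No 2 groups overlapped, and both T values were close to their limits of 8.93 and 8.74. Bcl2l1 was 2.91-fold lower in T than in mVec (log2 difference -1.54 ± 0.24, limma adjusted p = 0.000642). In PT it was 1.85-fold lower than in mVec (-0.89 ± 0.24, adjusted p = 0.0146), a call lost without PT replicate 1 (adjusted p = 0.114) or mVec replicate 2 (0.128). Its 14 alternatives gave adjusted p between 0.00449 and 0.128. The difference of -0.65 between T and PT was not called, with a 95% interval from -1.19 to -0.12 before adjustment, and was called among probe sets above background on at least 2 arrays (limma adjusted p = 0.0484).

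Mcl1, a short-lived survival protein that binds BAK and BIM, had log2 values of 15.24 and 15.15 on the T arrays, 15.26 and 15.30 on the PT arrays, and 14.70 and 14.63 on the mVec arrays. The mVec arrays were lower than all others, and the spread within each line was small. The difference from mVec was 0.61 ± 0.20 in PT (limma adjusted p = 0.0338) and 0.53 ± 0.20 in T, where it was not called (adjusted p = 0.0687). The PT call was lost with quantile normalization (adjusted p = 0.102), without PT replicate 1 (0.0969) or 2 (0.110) and without mVec replicate 1 (0.119) or 2 (0.160). Its 14 alternatives gave adjusted p between 0.00111 and 0.160. The T difference was called under 4 alternatives, with adjusted p between 0.00394 and 0.254 over all of them. T and PT differed by -0.09, with a 95% interval from -0.53 to 0.35. Among the 3 survival genes, Bcl2 and Bcl2l1 were thus called lower in both T and PT, and Mcl1 had higher values.

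Bcl2l11 encodes BIM, a BH3-only protein that binds all of the main survival proteins. Its log2 values were 9.18 and 9.15 on the T arrays, 8.44 and 8.22 on the PT arrays, and 12.46 and 11.98 on the mVec arrays. Both mVec arrays were far above the limit, both T arrays just above it and both PT arrays under it, with no overlap between any 2 groups. Bcl2l11 was 8.30-fold lower in T than in mVec (log2 difference -3.05 ± 0.23, limma adjusted p = 5.65e-06). In PT it was at least 9.22-fold lower than in mVec (log2 difference -3.89 ± 0.23, adjusted p = 8.51e-07). The difference of 0.84 ± 0.23 between T and PT was not called (limma adjusted p = 0.0559). It was called with a mean-variance trend (adjusted p = 0.0371), among probe sets above background on at least 2 arrays (0.0156) and among those above the median mean (0.0246). Its 14 alternatives gave adjusted p between 0.0156 and 0.204.

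The promoters of Bcl2 and Bcl2l11 are shown because both genes were called lower in both T and PT, and because these windows lie outside the annotated genes. Windows from the RefSeq promoter table, on GRCm38.p6, were read for 8 of the 10 genes, over the 250 bases before the start. Tnfrsf10b had no window, and the chromosome of Pmaip1 was left out of the reading. Both strands were searched for 8 motifs: the GC box GGGCGG, the CCAAT box CCAAT, the cAMP response element TGACGTCA, the E-box CACGTG, the FOXO site GTAAACA, the STAT site TTCNNNGAA, the CHOP-ATF site TGATGCAAT and the AP-1 site TGANTCA. Capitals mark the matches, and no 2 matches in these windows overlap. The Bcl2 window is chr1:106714291-106714540 on the minus strand, and the Bcl2l11 window is chr2:128125788-128126037 on the plus strand.
Bcl2: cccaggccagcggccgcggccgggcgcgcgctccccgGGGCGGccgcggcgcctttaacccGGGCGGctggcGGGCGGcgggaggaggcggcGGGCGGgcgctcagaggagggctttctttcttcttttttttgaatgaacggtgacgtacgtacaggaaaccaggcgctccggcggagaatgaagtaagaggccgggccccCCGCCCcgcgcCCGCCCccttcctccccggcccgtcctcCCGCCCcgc
Bcl2l11: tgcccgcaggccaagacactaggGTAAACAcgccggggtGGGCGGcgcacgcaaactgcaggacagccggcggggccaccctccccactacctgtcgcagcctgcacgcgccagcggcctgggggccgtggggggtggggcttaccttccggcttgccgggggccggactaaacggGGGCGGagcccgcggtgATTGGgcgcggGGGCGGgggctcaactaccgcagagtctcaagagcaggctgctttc
The Bcl2 window held 7 GC boxes and no other match. The Bcl2l11 window held 3 GC boxes, 1 CCAAT box that begins at base -57 from the start and 1 FOXO site that begins at base -227. Of 32851 windows of the same length in the table, 32.7% held a GC box, 33.8% a CCAAT box and 3.17% the FOXO site. A match describes the letters of the window and is not evidence of binding.

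Bbc3 encodes PUMA and Pmaip1 encodes NOXA, BH3-only proteins best known as targets of p53, and Bid encodes a BH3-only protein that caspase 8 cleaves after death receptor signalling. Bbc3 had log2 values of 5.33 and 5.15 on the T arrays, 5.68 and 5.58 on the PT arrays, and 5.60 and 5.30 on the mVec arrays. Pmaip1 had 4.44 and 4.59 on the T arrays, 4.60 and 4.06 on the PT arrays, and 3.62 and 4.0 on the mVec arrays. Bid had 8.21 and 8.05 on the T arrays, 7.46 and 8.11 on the PT arrays, and 7.71 and 7.99 on the mVec arrays. All values of these 3 genes were under the limits of their arrays, so that differences in the amount of these transcripts may not be detectable here and no fold is given. The differences from mVec had 95% intervals from -0.68 to 0.27 in T and from -0.30 to 0.66 in PT for Bbc3. For Bid these intervals ran from -0.30 to 0.86 in T and from -0.64 to 0.51 in PT. Pmaip1 was 0.71 ± 0.25 above mVec in T (limma adjusted p = 0.0545) and 0.52 ± 0.25 above it in PT (adjusted p = 0.143). The T value was called under 5 of its 12 alternatives and the PT value under 1. The 5 are not all separate, because leaving out either PT array gave the same fit as using only the T and mVec arrays. Of the 4 BH3-only genes, Bcl2l11 was the one above background in any line.

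Bak1 encodes BAK, an effector that forms pores in the outer mitochondrial membrane. Its log2 values were 10.10 and 9.82 on the T arrays, 10.50 and 10.67 on the PT arrays, and 9.61 and 9.08 on the mVec arrays. All 6 values were above background, the 3 groups did not overlap, and the order was PT, T and mVec. Bak1 was 2.36-fold higher in PT than in mVec (log2 difference 1.24 ± 0.24, limma adjusted p = 0.00237). The difference of 0.62 ± 0.24 in T was not called (adjusted p = 0.0830), but was when arrays were centred on their medians (0.0311) and with either filter on low values (0.0307 and 0.0425). Its 14 alternatives gave adjusted p between 0.0307 and 0.466. T minus PT was -0.62 with a 95% interval from -1.16 to -0.08 before adjustment, and was not called (limma adjusted p = 0.162). The other main effector, Bax, is not analysed here.

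**Figure D2:**
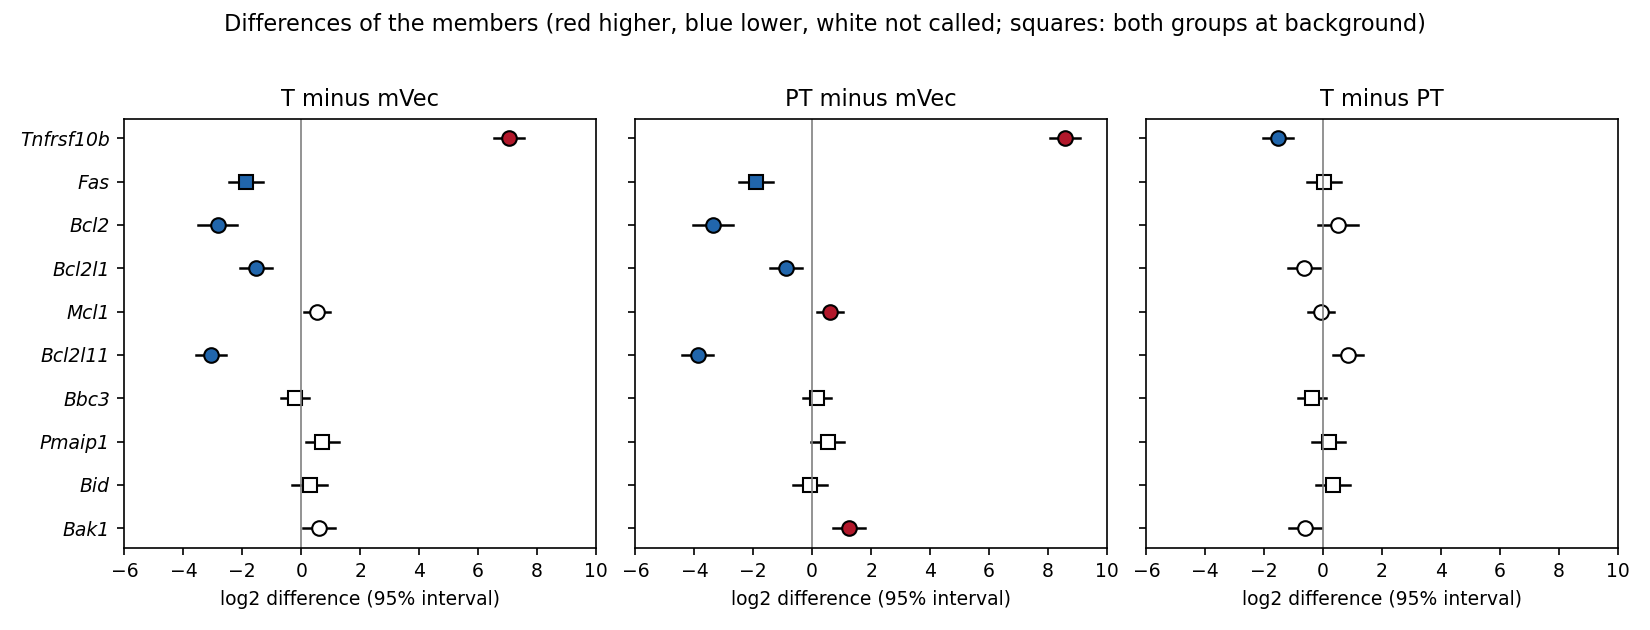
Log2 differences (horizontal axis) of the 10 genes for T and PT minus mVec and for T minus PT, each with its 95% interval from limma before adjustment. Red is called higher, blue called lower and white not called, and squares mark genes at background in both groups. In both comparisons with mVec, Tnfrsf10b lies far to the right and Bcl2 and Bcl2l11 to the left, and between T and PT only Tnfrsf10b was called.

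Between T and PT, the call of Tnfrsf10b held in all 14 of its alternatives, with adjusted p from 0.00100 to 0.0454. Leaving out either mVec array gave the same fit as using only the T and PT arrays, so the 14 are not all separate. The other 9 genes were not called, which does not show that they are equal: their 95% intervals before adjustment reached from -1.19 for Bcl2l1 to 1.35 for Bcl2l11. The number of calls over all probe sets in this comparison depended on single arrays, with 1857 calls in all and 659 without T replicate 2, 549 without PT replicate 1 and 801 without PT replicate 2.

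The other genes of the pathway were read from 10 lists that hold 104 genes, of which 95 were measured. In T, 24 of the 95 were called higher and 22 lower than in mVec, 11 of these 46 at background in both groups. In PT, 24 were called higher and 29 lower, 14 of these 53 at background in both groups. The called share of the 95 was 48.4% in T, beside 32.4% of all gene probe sets, and 55.8% in PT, beside 35.9%. In T minus PT, 12 of the 95 were called, 9 higher and 3 lower, which is 12.6% beside 8.36%. That count fell when T replicate 2 or PT replicate 1 was left out. The counts of the single lists below stand beside the same shares of all gene probe sets. In the separate fit of the probe sets above background on at least 2 arrays, 71.8% were called in T and 75.6% in PT. The 95 were not filtered in this way, and 55 of them were above background in T or mVec. The median log2 difference of the 95 was -0.03 in T and -0.09 in PT. The death ligands were at background in every line for all 6 measured genes. Tnfsf10, the ligand TRAIL that binds the product of Tnfrsf10b, was called lower at background, with log2 values of 5.16 and 4.66 on the T arrays, 4.50 and 5.08 on the PT arrays, and 6.60 and 5.94 on the mVec arrays. Fasl, the ligand of Fas, had means of 4.01 in T, 4.23 in PT and 4.14 in mVec. These 2 ligands were named after their values were seen.

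**Figure D3:**
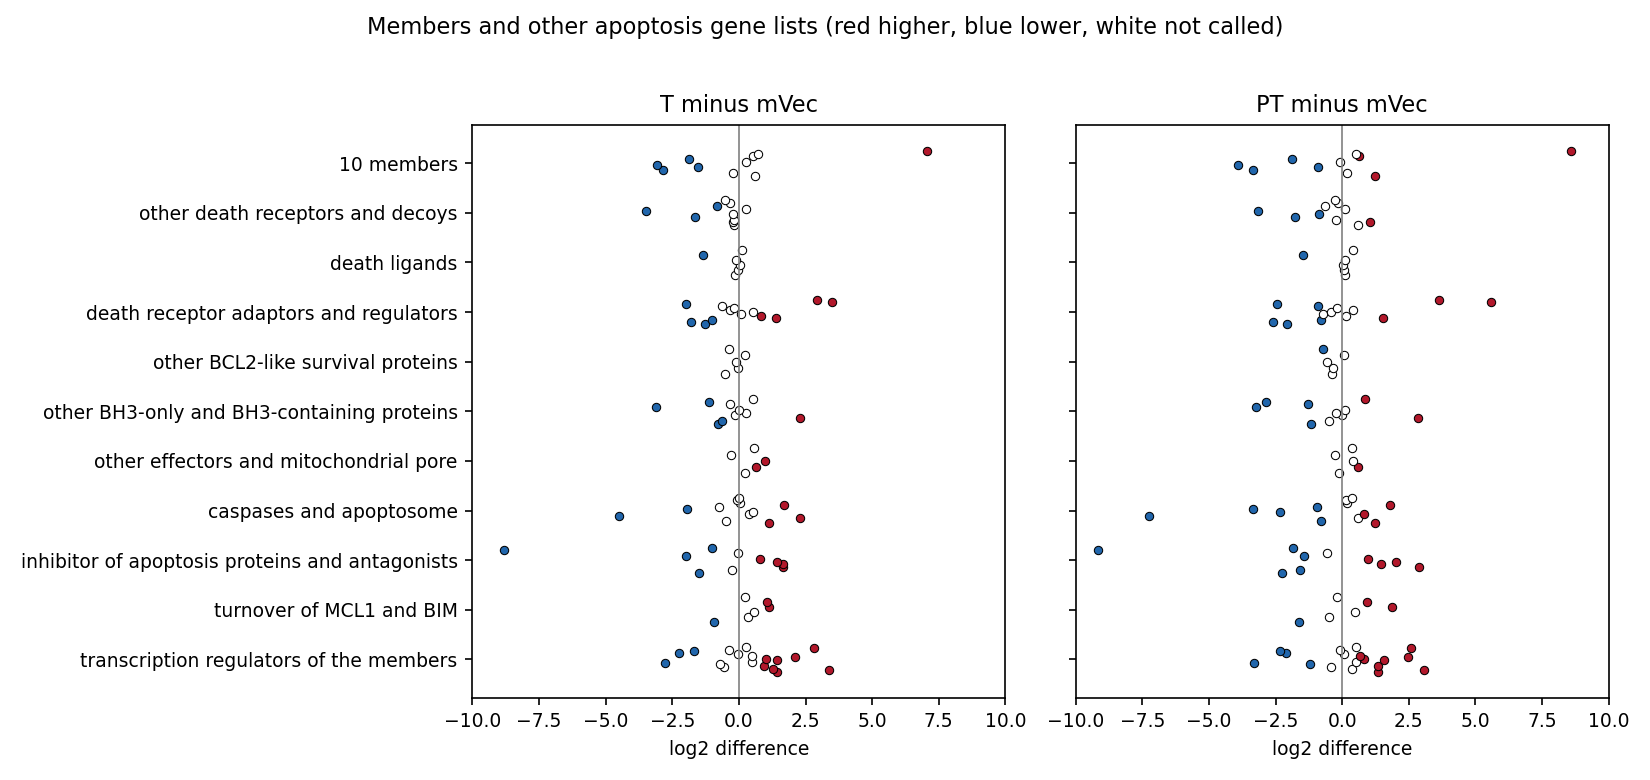
Log2 differences (horizontal axis) of the 10 genes and of the genes in 10 further apoptosis lists, 1 point per gene, for T minus mVec and PT minus mVec. Red is called higher, blue called lower and white not called by limma. In T minus mVec, 6 of the 10 further lists hold calls in both directions, and in PT minus mVec 7 do.

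Of 10 other death receptors and decoys measured, 3 were called lower and 0 higher in T, and 3 lower and 1 higher in PT. The higher one in PT was Ngfr, named after its value was seen and at background in both groups. Tnfrsf1a, the main receptor for tumour necrosis factor, had log2 values of 11.88 and 11.98 on the T arrays, 11.93 and 11.63 on the PT arrays, and 13.56 and 13.55 on the mVec arrays. It was 3.09-fold lower in T (limma adjusted p = 0.000184) and 3.42-fold lower in PT (8.16e-05). Tnfrsf21, which encodes the death receptor DR6, was under the limits in T and PT. Against mVec it was lower by at least 2.41-fold in T and by at least 2.13-fold in PT. Tnfrsf23, a mouse decoy receptor for TRAIL, was called lower in T (log2 difference -0.84 ± 0.26, limma adjusted p = 0.0311), a call lost when arrays were centred (0.0761), without T replicate 1 (0.165) and without mVec replicate 2 (0.228). Tnfrsf1b, the second receptor for tumour necrosis factor, was called lower in PT (-0.86 ± 0.23, adjusted p = 0.0159), a call lost without PT replicate 1 (0.121) and without mVec replicate 2 (0.129).

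Among adaptors and regulators at the receptors, caspase 8 and its inhibitor were lower and the TRAF adaptors higher in both T and PT. In T, 4 of 13 measured genes were called higher and 4 lower, and in PT 3 higher and 5 lower. Casp8, the protease that death receptors activate, had log2 values of 13.92 and 13.85 on the T arrays, 13.35 and 12.79 on the PT arrays, and 15.28 and 15.02 on the mVec arrays. It was 2.40-fold lower in T (limma adjusted p = 0.00248) and 4.22-fold lower in PT (7.73e-05). Its T minus PT difference was 0.82 ± 0.24 and was not called (limma adjusted p = 0.0727), but was with a mean-variance trend (0.0108) and with either filter on low values (0.0229 and 0.0341). Cflar encodes FLIP, which blocks caspase 8 at the receptor. It was 3.45-fold lower in T (log2 difference -1.79 ± 0.25) and 6.00-fold lower in PT (-2.58 ± 0.25) than in mVec.

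Traf2, an adaptor that links these receptors to NF-kappaB signalling, was at background in mVec and was at least 3.98-fold higher in T and at least 6.47-fold higher in PT. Traf1, a related adaptor, had log2 values of 8.86 and 8.92 on the T arrays, 10.65 and 11.29 on the PT arrays, and 5.40 and 5.37 on the mVec arrays. It was above background on 1 T array and on both PT arrays. Traf1 was at least 3.90-fold higher in PT than in mVec, and was called higher in T (log2 difference 3.51 ± 0.24), where its mean did not exceed the limits of mVec and no fold is given. Traf1, like Tnfrsf10b, was lower in T than in PT, by 4.22-fold (log2 difference -2.08 ± 0.24, limma adjusted p = 0.00188). Cyld, a deubiquitinase that restrains NF-kappaB signalling, was 2.66-fold higher in T and 2.89-fold higher in PT. Faim, an inhibitor of Fas-driven apoptosis, was called between T and PT, with a log2 difference of 0.98 ± 0.20 (limma adjusted p = 0.0168) that was lost without T replicate 2 (0.0806), PT replicate 1 (0.102) or PT replicate 2 (0.0689).

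In the rest of the BCL2 family, the 5 other survival genes were at background in every line. Of these, Bcl2l2, named after its value was seen, was called lower in PT (log2 difference -0.72, limma adjusted p = 0.0202). In the list of other BH3-only and BH3-containing genes, 1 of 10 was called higher and 4 lower in T, and 2 higher and 4 lower in PT. Bcl2l13, a mitochondrial protein with BCL2-like domains, was at background in mVec and was at least 2.89-fold higher in T and at least 4.26-fold higher in PT. Bnip3l, also known as NIX, a receptor for the removal of mitochondria, had log2 values of 13.37 and 13.64 on the T arrays, 11.79 and 11.74 on the PT arrays, and 14.60 and 14.63 on the mVec arrays. It was 2.16-fold lower in T (limma adjusted p = 0.00195) and 7.20-fold lower in PT (2.94e-06), and the difference between T and PT was called too (1.74 ± 0.20, adjusted p = 0.00184). Bnip3, its close relative, was called lower in PT than in mVec, by at least 2.01-fold. It was called higher in T than in PT, by at least 1.61-fold (limma adjusted p = 0.0325). That call was lost without any 1 of the 6 arrays, with quantile normalization (0.104) and with only the arrays of T and PT in the fit (0.0593). Leaving out either mVec array gave the same fit as the last of these.

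In the list of other effectors and the mitochondrial pore, 2 of 5 genes were called higher in T and 1 in PT, and 0 lower. Vdac1, a channel of the outer membrane, was 1.95-fold higher in T, a call lost without mVec replicate 1 (adjusted p = 0.0571). Mtch2, a receptor for BID at mitochondria, was called higher in T (0.63 ± 0.20, limma adjusted p = 0.0338) and in PT (0.60 ± 0.20, adjusted p = 0.0362). Each Mtch2 call was lost when any 1 array of its 2 groups was left out, with adjusted p from 0.0826 to 0.144 in T and from 0.0825 to 0.147 in PT.

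Of the caspase and apoptosome list, 3 of 12 measured genes were called higher and 2 lower in T, and 3 higher and 5 lower in PT. Cycs, which encodes cytochrome c, had log2 values of 15.71 and 15.62 on the T arrays, 15.72 and 15.80 on the PT arrays, and 13.94 and 14.01 on the mVec arrays. It was 3.22-fold higher in T (limma adjusted p = 0.000103) and 3.45-fold higher in PT (5.32e-05). Aifm1, a mitochondrial flavoprotein released in cell death, was 2.17-fold higher in T and 2.33-fold higher in PT. Casp12, a caspase of the endoplasmic reticulum in mice, was at background in both T and PT. Its level was lower than in mVec by at least 14.5-fold in T and by at least 12.8-fold in PT. The log2 differences were -4.51 ± 0.45 in T and -7.26 ± 0.45 in PT. The bounds depend on the limits of the arrays and do not rank T and PT. Casp6, an executioner caspase, was lower than in mVec by 3.87-fold in T and by at least 5.97-fold in PT. Casp4, the mouse inflammatory caspase 11, had log2 values of 11.86 and 11.51 on the T arrays, 8.79 and 8.84 on the PT arrays, and 11.23 and 11.07 on the mVec arrays. PT alone was at background. Casp4 was higher in T than in PT by at least 6.38-fold (limma adjusted p = 0.000235), and lower in PT than in mVec by at least 4.40-fold (1.47e-05). Casp6 was called between T and PT as well, at least 1.54-fold higher in T (limma adjusted p = 0.0183), which was lost without T replicate 2 (0.115) and without PT replicate 1 (0.144).

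Inhibitor of apoptosis genes and their antagonists had 4 of 10 genes called higher and 4 lower in T, and 4 higher and 5 lower in PT. Xiap, which inhibits caspases directly, had log2 values of 11.97 and 12.18 on the T arrays, 11.18 and 11.31 on the PT arrays, and 13.19 and 12.95 on the mVec arrays. Xiap was 2.0-fold lower in T (log2 difference -1.0 ± 0.21) and 3.55-fold lower in PT (-1.83 ± 0.21). Diablo, which encodes the XIAP antagonist SMAC, was 2.71-fold higher in T and 4.05-fold higher in PT. Xaf1, another antagonist of XIAP and an interferon-induced gene, was at background in T and PT and called lower in both, at 6.02 and 5.90 on the T arrays, 5.39 and 5.79 on the PT arrays, and 14.82 and 14.71 on the mVec arrays. Birc6, a large ubiquitin-conjugating inhibitor, was 3.14-fold higher in T and 2.74-fold higher in PT. Birc5, which encodes survivin, a protein that also works in mitosis, was at background in mVec and at least 1.96-fold higher in T and at least 4.66-fold higher in PT.

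Birc3, also known as cIAP2, was 2.46-fold higher in T than in PT (limma adjusted p = 0.00541), with log2 values of 11.07 and 11.02 on the T arrays, 9.76 and 9.72 on the PT arrays, and 11.40 and 11.22 on the mVec arrays. Birc5 was lower in T than in PT (-1.25 ± 0.26, adjusted p = 0.0201), a call lost without T replicate 2 (0.125), PT replicate 1 (0.0535) or PT replicate 2 (0.120). Xiap was called between T and PT (0.83 ± 0.21, adjusted p = 0.0421). That call was lost without any 1 of the 6 arrays and when arrays were centred (0.0509). It was also lost with only the arrays of T and PT (0.0714), the same fit as without either mVec array, and with the replicate number as a block (0.0543). The ubiquitin ligase Huwe1, which marks MCL1 for destruction, was called higher in T (1.04 ± 0.24, adjusted p = 0.00807) and in PT (0.92 ± 0.24, adjusted p = 0.0138). The Huwe1 call was lost in T without T replicate 1 (0.0504) or mVec replicate 2 (0.0691), and in PT without PT replicate 1 (0.0576), PT replicate 2 (0.0669) or mVec replicate 2 (0.102). Btrc, a ligase subunit for BIM and other substrates, was lower in T (-0.93 ± 0.24, adjusted p = 0.0126) and in PT (-1.64 ± 0.24, adjusted p = 0.000341), and the T call was lost without T replicate 1 (0.0616) or mVec replicate 1 (0.129).

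Among 18 measured transcription regulators of the 10 genes, 8 were called higher and 3 lower in T, and 8 higher and 4 lower in PT. Ddit3 encodes CHOP, a stress factor known to activate the TRAIL receptor gene in human cells. Ddit3 has 2 probe sets, of which the one with the higher mean was read, and the other is not described here. The log2 values were 13.47 and 13.75 on the T arrays, 13.28 and 13.30 on the PT arrays, and 10.37 and 10.08 on the mVec arrays. Ddit3 was 10.5-fold higher in T (log2 difference 3.39 ± 0.22, limma adjusted p = 2.01e-06) and 8.40-fold higher in PT (3.07 ± 0.22, adjusted p = 2.55e-06), and T and PT did not differ by a call (0.32, 95% interval from -0.16 to 0.80). Trib3, a pseudokinase induced by CHOP, was 6.99-fold higher in T and 5.99-fold higher in PT. Myc, which can raise BIM in other cell types, was 4.35-fold higher in T (log2 difference 2.12 ± 0.21) and 5.52-fold higher in PT (2.46 ± 0.21).

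Foxo3, a forkhead factor known to activate Bcl2l11 and Bbc3, had log2 values of 10.40 and 10.22 on the T arrays, 10.50 and 10.88 on the PT arrays, and 9.25 and 9.46 on the mVec arrays. It was 1.93-fold higher in T (limma adjusted p = 0.00797, and 0.0698 without mVec replicate 1) and 2.52-fold higher in PT (0.000891), while Bcl2l11 was lower in both lines. Stat3, a factor known to activate Bcl2l1 and Mcl1, was 4.76-fold lower in T (limma adjusted p = 4.26e-05) and 4.25-fold lower in PT (5.31e-05). Irf1, an interferon-induced factor, was at background in both T and PT and lower than in mVec by at least 3.69-fold in T and by at least 3.26-fold in PT. These bounds do not rank T and PT, and the log2 differences were -2.79 ± 0.22 in T and -3.29 ± 0.22 in PT. Mdm2, a p53 target that restrains p53, was 0.51 ± 0.21 above mVec in T and 0.50 ± 0.21 in PT and was not called (limma adjusted p = 0.0945 and 0.0923). In each line it was called under 4 alternatives, the lowest adjusted p being 0.0106 in T and 0.0105 in PT.

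**Figure D4:**
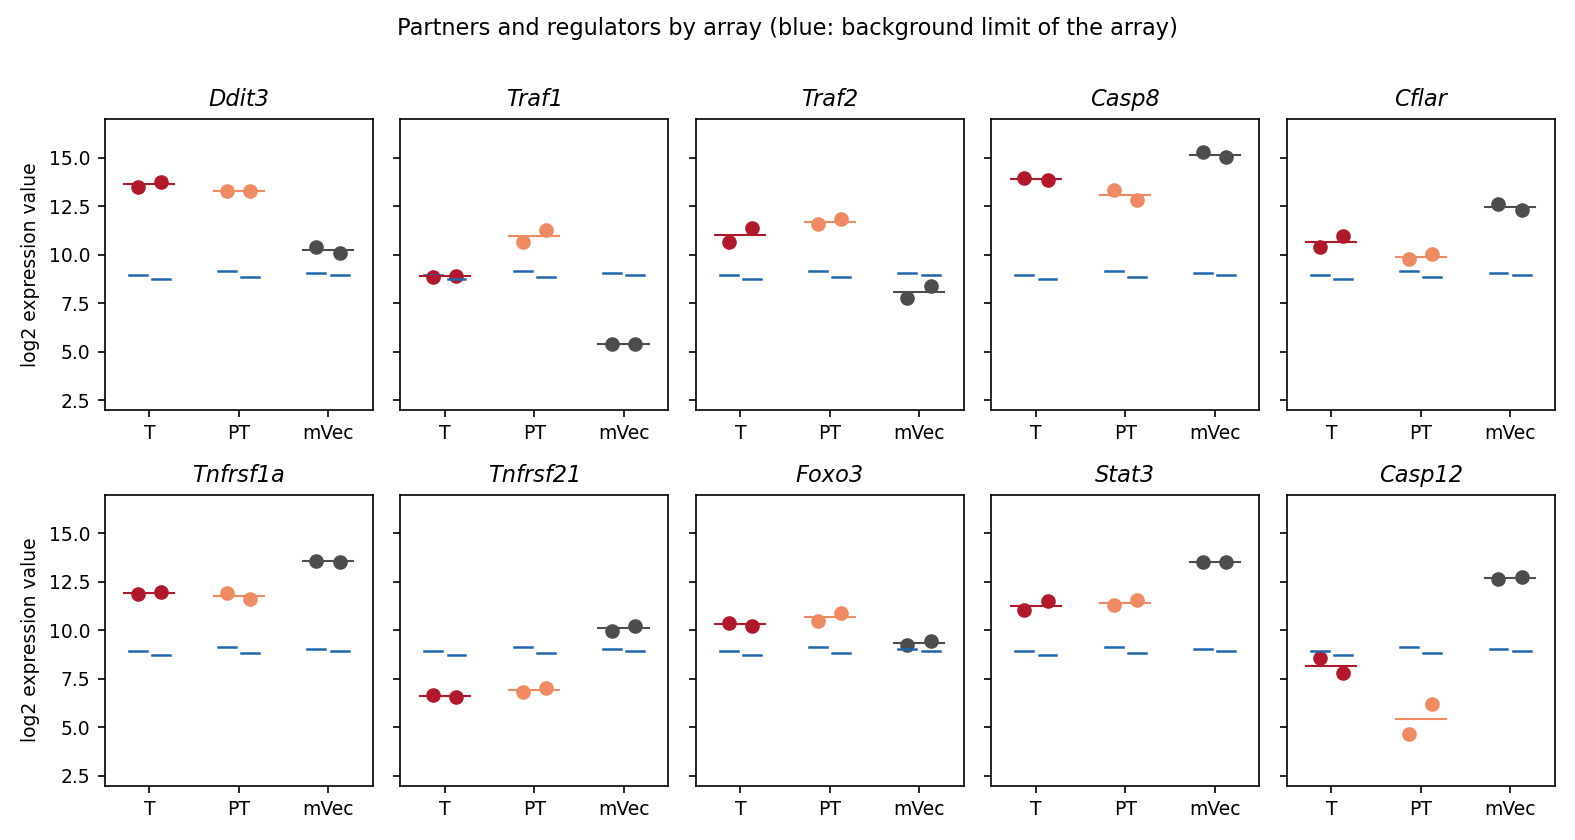
Log2 expression value (vertical axis) of 10 partners and regulators on each array of T, PT and mVec. Points are arrays, the coloured line is the group mean of 2 arrays and the blue line is the background limit of that array. Ddit3, Traf1, Traf2 and Foxo3 are higher, and Casp8, Cflar, Tnfrsf1a, Tnfrsf21, Stat3 and Casp12 lower, in T and PT than in mVec.

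The genes most like each member over the 6 arrays were found by the root mean square difference of log2 profiles centred per gene. They were taken from 7410 other genes above background on at least 1 array, with predicted, olfactory and small RNA names left out. They are a description with no test, and the points share 3 lines. For Tnfrsf10b they were Gprc5a (0.42), Phlda2 (0.49) and Foxr2 (0.54). Gprc5a, an orphan receptor that responds to retinoic acid, had log2 values of 12.87 and 13.23 on the T arrays, 14.05 and 13.83 on the PT arrays, and 5.05 and 5.58 on the mVec arrays. For Bcl2l11 they were Dock10 (0.04), Ifi204 (0.14) and Tns1 (0.14), and for Bcl2 they were Jcad (0.14), Eva1b (0.16) and Psd3 (0.18). Of these, Dock10, Tns1, Jcad, Eva1b and Psd3 were under the limits on all T and PT arrays, so their profiles rest there on values at background. For Mcl1 they were the amino acid transporter Slc38a2 (0.02), Tbl1x (0.04) and Paxip1 (0.06). Bcl2l1 was closest to Bhlhe41 (0.14), Ddx17 (0.14) and Rasa3 (0.15), and Bak1 to Fubp3 (0.09), Ola1 (0.11) and Tardbp (0.11).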

How the data were processed

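Total RNA was measured on Affymetrix Clariom S arrays, per the labels' protocols. The authors deposited 1 table of log2 values for 28846 rows and 6 arrays. Software, background correction, normalization and build were not given in the sources used here. That the unit is log2 follows from the range of the values. The 22206 gene probe sets were tested, and 6640 control rows were left out. Symbols came from the platform's annotation. The values were used as deposited, with no filter. All 6 arrays entered 1 model in R 4.3.3 with limma 3.58.1, with a mean per group. It had 3 residual and 6.36 prior degrees of freedom. P-values are two-sided and adjusted by the Benjamini-Hochberg method within each comparison. The fit was tested on simulated data, where many of the smaller changes and some of the larger ones were missed. Far fewer probe sets were changed there than were called here, so that rate of misses does not carry over. A gene that was not called may still differ. Arrays have no read depth, so the 2 arrays per line limit the precision. The 10 genes, the lists and the background limit were chosen with earlier results of these data known. Besides the 10 genes, up to 4 genes of each list and comparison are named, those with the largest called difference whose arrays do not overlap and that were above background in 1 of the groups, with Mdm2, Foxo3, Ddit3 and Casp8 always. For a gene with several probe sets the one with the highest mean was read.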

Additional observations from a re-analysis of the deposited data

Results flagged for a closer look

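Tnfrsf10b is listed because its differences from mVec in T and in PT were themselves different: it was lower in T than in PT by a log2 difference of -1.54 (limma adjusted p = 0.00438), with both T arrays under both PT arrays. No other member passed the test of that difference.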

How the results depend on the processing

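Over the alternatives, 374 of 402 values of the 10 genes kept their side of the threshold without a clear change of direction. Some of these were uncalled values whose sign changed with a shift under limma's standard error. Of the rest, 7 lost a call, 17 gained one, and 4 uncalled values changed sign with a larger shift. No called difference of a member changed sign. The members called in T minus mVec numbered 5, beside 32.4% of all probe sets, and 8 when arrays were centred on their medians, beside 33.9%. In T minus PT, 1 of 10 members was called, beside 8.36% of all probe sets, and 2 of 10 with a mean-variance trend, beside 11.4%. It was 3 of the 6 tested among probe sets above background on at least 2 arrays, beside 30.6%, and 2 of the 8 tested among those above the median mean, beside 23.3%. Leaving out 1 array at a time gave 5 to 6 called members in T minus mVec, 5 to 7 in PT minus mVec and 1 in T minus PT, and 549 to 1714 called probe sets in T minus PT, against 1857. With a lone array in a group, its spread is assumed to be that of the other groups. Leaving out an array of the third line gave the same fit as using only the arrays of the 2 compared lines. Such settings repeat each other, so the alternatives counted here are not all separate. With the replicate number as a block, 5, 7 and 1 members were called, as without it, beside 33.0%, 36.3% and 8.19% of all probe sets. Deviations of equal numbers correlated at 0.082, 0.043 and 0.040, so the numbers were not used as pairs. With the 99th percentile as the background limit, 7 of the 10 genes were at background on all arrays, against 4. The added ones are Bcl2l1, Bcl2l11 and Bak1, for which no fold could then be given, nor for Tnfrsf10b in T minus mVec. No member has several probe sets, so the alternative of reading another could not be run.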
